A study of Mus musculus with 8 samples.

Results

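The MiT/TFE family comprises the transcription factor genes Tfec, Tfeb, Tfe3 and Mitf, and all 4 were found by symbol among the 41444 genes of the table and were among the 11851 with a mean of at least 4 on the rlog scale. Bulk RNA-seq had been made from macrophages grown out of C57BL/6 wild-type mouse bone marrow with M-CSF, the growth factor that drives macrophage differentiation. Marrow cells had been kept in 100 ng/mL M-CSF, 2 days in bacterial dishes and 6 days in treated plastic ones. They had then received SLIT2, the secreted protein that signals through ROBO guidance receptors, at 6 nM for 16 hours (4 libraries) or vehicle (4 libraries). The labels number the libraries 1 to 4 in each group without saying whether separate mice or cultures lie behind them, so p-values measure only how far these libraries spread, a spread that may be technical. The members were chosen by family name, with their SLIT2 and vehicle rlog values already known, so the difference of each member between SLIT2 and vehicle is given as a description with no test.

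MiT/TFE proteins are basic helix-loop-helix leucine zipper factors that bind DNA as dimers, with themselves or with each other, at E-boxes. A group of lysosomal and autophagy genes carries an extended E-box, the CLEAR element, to which TFEB and TFE3 bind. In fed cells the kinase complex mTORC1 phosphorylates these factors at the lysosome, where Rag GTPases dock them, and 14-3-3 proteins hold them in the cytoplasm. Mitf is needed for melanocytes, mast cells and osteoclasts. Tfec is expressed mainly in macrophages, is induced by interleukin-4 in mouse macrophages, and was described there with a promoter driven by the myeloid factor PU.1. RNA levels show neither the phosphorylation nor the location of these proteins.

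The RefSeq start-site window of Tfec is shown because Tfec was the member that stood higher in SLIT2. It lies at chr6:16898392-16898691 on the minus strand of GRCm38.p6 and runs from 250 bases before the start to 50 after it. Capitals mark the letters AGGAAGT, an ETS and PU.1 core, and the letters GAGGAA, the PU box, here on the reverse strand.
Tfec: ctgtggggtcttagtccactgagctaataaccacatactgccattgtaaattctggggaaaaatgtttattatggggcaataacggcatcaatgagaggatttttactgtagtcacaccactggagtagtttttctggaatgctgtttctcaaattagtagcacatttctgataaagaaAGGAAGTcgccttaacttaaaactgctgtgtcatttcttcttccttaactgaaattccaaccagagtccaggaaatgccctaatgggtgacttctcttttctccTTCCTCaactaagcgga
The first match began at position -71 and the second at position 34 relative to the start site. Over all 32851 mouse windows of this length, searched on both strands, AGGAAGT occurred in 9.35% and GAGGAA in 28.3%. The window also held a STAT-type pair of half-sites, TTC and GAA with 4 bases between them (6.95% of windows), as did 1 Tfeb window. It held neither the E-box CACGTG (7.15%) nor that pair with 3 bases between (8.3%). None of the 3 Mitf and 3 Tfeb windows held a PU box, the ETS core, an E-box or the Mitf-bound M-box core CATGTG (14.2% of windows), while 1 of 2 Tfe3 windows held the ETS core. These matches describe letters and are not evidence of binding.

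Values are the authors' regularized-log (rlog) values, a log2 expression scale corrected for library size. Reads were not counted here, so the depth behind each value is unknown. Replicates 1 and 2 stood apart from replicates 3 and 4 in both groups. Over the 11851 genes tested, this split accounted for 46.7% of the squared deviations, and treatment for 37.3%. Xist, expressed in female cells, was between 7.51 and 7.54 rlog in SLIT2 and between 7.47 and 7.65 in vehicle for replicates 1 and 2. For replicates 3 and 4 it was 12.71 in SLIT2 and between 12.69 and 12.79 in vehicle. Ddx3y, a Y chromosome gene, was at 10.75 to 10.83 in SLIT2 and 10.75 to 10.80 in vehicle for replicates 1 and 2. In replicates 3 and 4 it was at 6.27 to 6.28 in SLIT2 and 5.90 to 6.45 in vehicle. By these genes the sets came from sources of different sex. Libraries of a set may be duplicates of 1 source, and n = 4 then counts duplicates. The ribosomal RNA locus Gm42418 also moved with treatment and took 0.602% to 1.80% of the summed linear values in SLIT2 libraries and 1.94% to 4.99% in vehicle libraries. Its part in any result below was not tested. Of the macrophage markers, Csf1r, Adgre1, Cd68, Itgam, Lyz2, Fcgr1, Mertk, Cd14 and Lgals3 passed the minimum mean of 4 rlog, whereas Tyrobp, which macrophages express, was listed at 0 throughout, so that a listed 0 does not show absence.

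The family moved apart with SLIT2. Tfec was higher, Tfeb and Mitf were lower, and Tfe3 lay at nearly the same level in both groups. Tfec (ENSMUSG00000029553, minus strand of chromosome 6, 16833373 to 16898441 in GRCm38) had rlog values of 11.64, 11.71, 11.51 and 11.54 in SLIT2 replicates 1 to 4, against 10.30, 10.30, 10.26 and 10.25 in vehicle replicates 1 to 4. Every SLIT2 library was more than 1 log2 unit above every vehicle library. The means were 11.60 ± 0.092 in SLIT2 and 10.28 ± 0.026 in vehicle (SD, n = 4 each), a log2 difference of 1.32 (SE 0.052), or 2.50-fold on the rlog scale. By the size of its difference, Tfec ranked 89th of the 11851 genes tested.

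Tfeb, the lysosome and autophagy regulator (ENSMUSG00000023990, plus strand of chromosome 17, 47737030 to 47792419), had values of 9.82, 9.96, 10.14 and 10.12 in SLIT2 replicates 1 to 4, against 10.37, 10.27, 10.72 and 10.71 in vehicle. Every SLIT2 library was below every vehicle library. The mean was 10.01 ± 0.15 in SLIT2 and 10.52 ± 0.23 in vehicle (SD, n = 4 each), a difference of -0.51 (SE 0.12). Replicates 3 and 4 were higher than replicates 1 and 2 in both groups, by 0.24 in SLIT2 and by 0.40 in vehicle.

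Mitf (ENSMUSG00000035158, plus strand of chromosome 6, 97807052 to 98021349) was at 11.38, 11.37, 11.40 and 11.42 in SLIT2 replicates 1 to 4, against 11.88, 11.89, 11.65 and 11.63 in vehicle. The SLIT2 libraries were nearly level, and the vehicle libraries split by replicate set. The mean was 11.39 ± 0.022 in SLIT2 and 11.76 ± 0.14 in vehicle (SD, n = 4 each), a difference of -0.37 (SE 0.069). Mitf was lower in SLIT2 by a log2 difference of -0.51 within the first replicate pair and of -0.23 within replicates 3 and 4.

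Tfe3 (ENSMUSG00000000134, plus strand of chromosome X, 7762560 to 7775202), which shares many functions with Tfeb, was at 12.44, 12.45, 12.29 and 12.28 in SLIT2 replicates 1 to 4 and at 12.49, 12.46, 12.35 and 12.30 in vehicle. These ranges overlapped, and the split by replicate set was wider than the gap between the groups. Its difference was -0.04 (SE 0.063), between means of 12.37 ± 0.093 in SLIT2 and 12.40 ± 0.090 in vehicle (SD, n = 4 each).

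**Figure D1:**
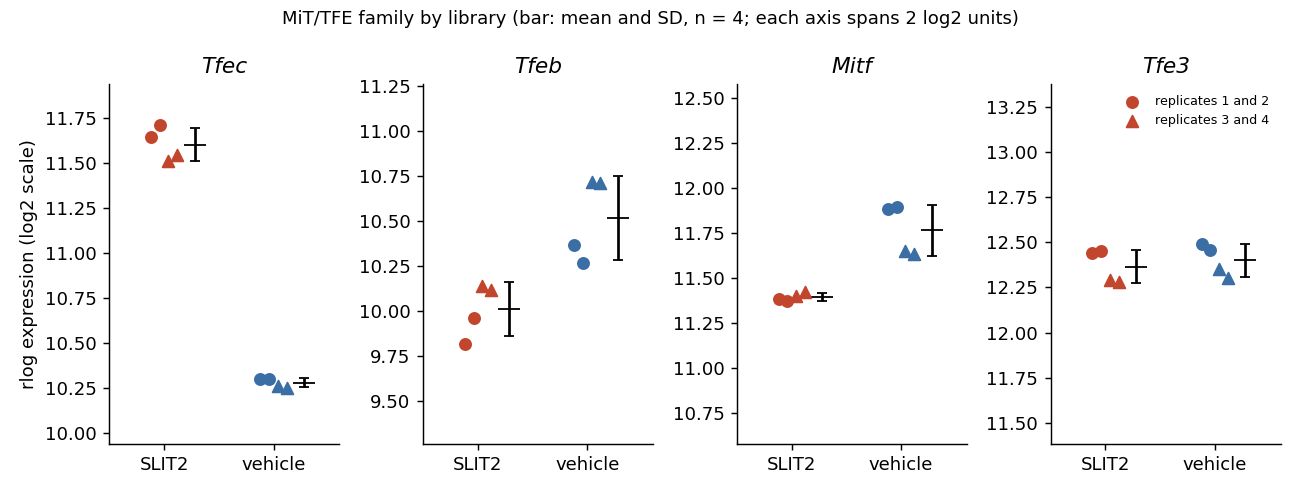
Regularized-log expression (vertical axis, log2 scale) of the 4 family members in each SLIT2 library (red) and each vehicle library (blue), with circles for replicates 1 and 2, triangles for replicates 3 and 4, and the mean and SD (n = 4) beside them. Tfec was higher in SLIT2 by 1.32, Tfeb and Mitf were lower by 0.51 and 0.37 without overlap, and Tfe3 values overlapped.

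In the limma fit over all 11851 genes, 3 of the 4 members passed an adjusted p of 0.05 (1 higher and 2 lower), where 13.3% of all genes passed (6.76% higher and 6.58% lower). The SLIT2 and vehicle values did not overlap for the same 3 members, where 20.5% of all genes showed no overlap (10.6% above and 9.99% below). With the replicate number as a block the count was again 1 higher and 2 lower, against 33.0% of all genes (16.6% higher and 16.4% lower). With duplicates averaged and the replicate set as a block the count was 1 higher and 1 lower, against 5.81% (3.15% higher and 2.66% lower). The contrast was known when the family was chosen, so these counts are descriptions. Nothing in the annotation overlaps the exons of the members, and the longest stretch that any pair shared exactly was 29 bases (Tfeb and Tfe3), shorter than the reads of 101 bases.

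Whether the SLIT2 effect differed between the replicate sets is a separate question from its mean size and was tested with a limma interaction term, which rests on the spread within duplicates. The interaction passed for Mitf (0.28, SE 0.040, adjusted p = 0.0121), where 4.40% of all genes passed. It did not pass for Tfec (-0.11, SE 0.050, adjusted p = 0.309), Tfeb (-0.16, SE 0.078, adjusted p = 0.327) or Tfe3 (-0.01, SE 0.041, adjusted p = 0.930). The Mitf result was lost without vehicle replicate 1 (adjusted p = 0.0526) and without a mean-variance trend (adjusted p = 0.0624). The tested quantity is the difference in replicates 3 and 4 minus that in replicates 1 and 2.

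Over the 8 libraries the members' values correlated as follows, as a description with no test, since the libraries share the treatment step and the replicate sets. Tfec ran opposite to Mitf (Pearson r = -0.894) and Tfeb (r = -0.859), with r = -0.143 for Tfe3. Mitf had r = 0.572 with Tfeb and 0.432 with Tfe3, and Tfe3 had r = -0.302 with Tfeb.

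Levels of different genes can be set side by side only per length. Scaled by the union of coding-transcript exons (2297 bases for Tfec, 5204 for Tfeb, 3636 for Tfe3 and 5319 for Mitf), the log2 level per kb in SLIT2 was highest for Tfe3 at 10.50 ± 0.093. Tfec followed at 10.40 ± 0.092, Mitf at 8.98 ± 0.022 and Tfeb at 7.63 ± 0.15 (SD, n = 4). The SLIT2 ranges of Tfe3 and Tfec overlapped, and with the longest coding transcript as the length their order turned round, with Tfec at 10.76 and Tfe3 at 10.60. In vehicle the order was Tfe3 at 10.54 ± 0.090, Mitf at 9.35 ± 0.14, Tfec at 9.08 ± 0.026 and Tfeb at 8.14 ± 0.23. There Mitf stood above Tfec in all libraries, but by the longest transcript the vehicle means of Mitf (9.48 ± 0.14), Tfec (9.44 ± 0.026) and Tfeb (9.29 ± 0.23) lay within their spread.

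The make-up of the family differed between the groups. Tfec took 38.5% ± 0.81 of the summed family level per kb in SLIT2 libraries and 18.2% ± 0.43 in vehicle libraries (SD, n = 4 each). The share of Tfe3 was 41.4% ± 0.98 in SLIT2 and 50.1% ± 1.05 in vehicle. Mitf had 14.4% ± 0.83 in SLIT2 and 22.04% ± 1.30 in vehicle, and Tfeb had 5.69% ± 0.80 in SLIT2 and 9.63% ± 1.90 in vehicle. No SLIT2 share of any member overlapped its vehicle shares. Shares in a library add up to the whole, so a higher Tfec share by itself lowers the others. Tfe3 had a lower share in SLIT2 although its rlog values overlapped between the groups, with a difference of -0.04. In replicates 1 and 2 Tfec took 39.1% in SLIT2 and 17.9% in vehicle, and in replicates 3 and 4 it took 37.9% in SLIT2 and 18.6% in vehicle. By the longest transcript the Tfec share was 40.5% ± 1.05 in SLIT2 and 19.1% ± 0.19 in vehicle. Other shares depended more on the length used. By the longest transcript Tfe3 had 36.3% in SLIT2 and 43.9% in vehicle, and Tfeb had 10.3% in SLIT2 and 17.4% in vehicle. Mitf had 12.9% in SLIT2 and 19.6% in vehicle. RNA shares do not give the shares of the proteins.

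**Figure D2:**
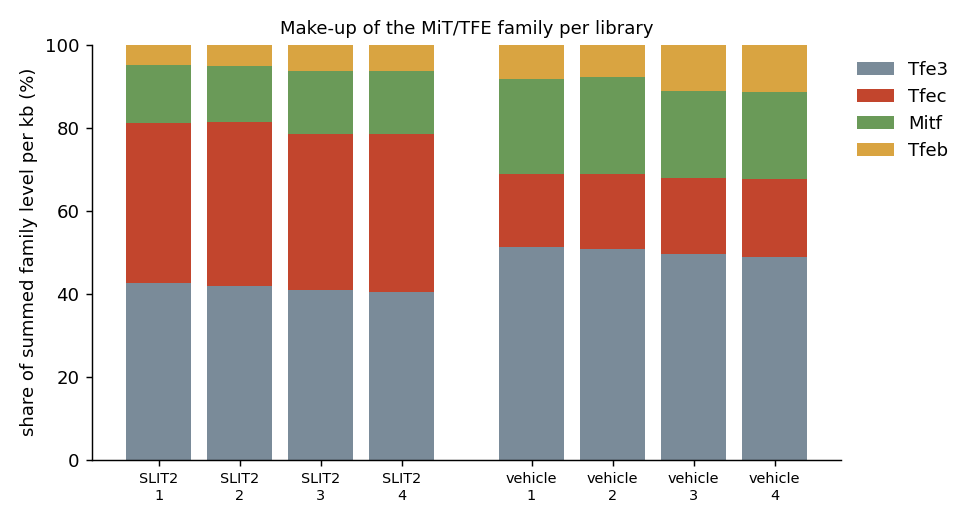
Stacked bars give each member's share (vertical axis, percent) of the summed MiT/TFE level per kb of exon in the 4 SLIT2 libraries (left) and the 4 vehicle libraries (right). Tfec averaged 38.5% in SLIT2 and 18.2% in vehicle, and Tfe3 41.4% in SLIT2 and 50.1% in vehicle. Shares in a library add up to the whole, and the rlog values of Tfe3 itself overlapped between the groups.

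The genes whose pattern over the 8 libraries was most like that of Tfec were Cept1, a phospholipid synthesis enzyme, Socs3, a feedback inhibitor of cytokine receptors, Ptger4, a prostaglandin E2 receptor, Myd88, the adaptor of Toll-like and interleukin-1 receptors, and Rab3il1, a guanine nucleotide exchange factor for Rab proteins. Their Pearson r with Tfec was 1.000 for Cept1, 0.998 for Socs3, 0.998 for Ptger4, and 0.997 for both Myd88 and Rab3il1. The most opposite genes were Mras, a Ras-family GTPase (r = -0.998), Unc119, a lipid-binding trafficking protein (r = -0.997), and Sesn1, a leucine sensor upstream of mTORC1 (r = -0.996). These 8 libraries share a treatment step, which any gene with a wide and even difference follows, so r is a description with no test. When each replicate set was centred on its own mean, 2 of the 8 genes were still among the 5 highest or 3 lowest, and with Spearman's rho again 2.

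**Figure D3:**
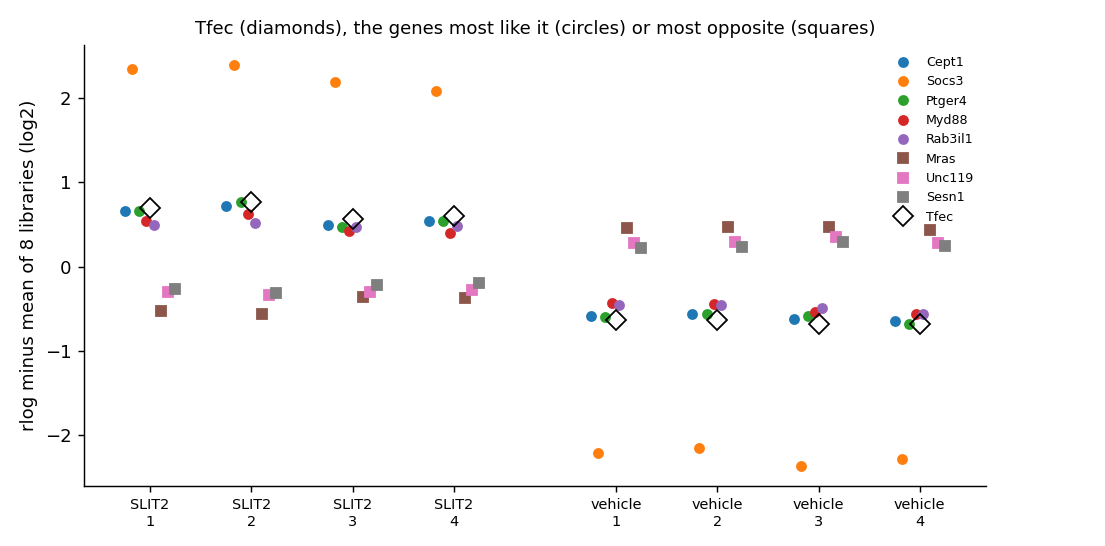
Each library's rlog value minus the gene's mean over the 8 libraries (vertical axis, log2) for Tfec (open diamonds), the 5 genes most like it (circles) and the 3 most opposite (squares), SLIT2 libraries left and vehicle libraries right, with genes set slightly apart for legibility. Socs3 had a difference of 4.52, while Cept1 (1.21) and Ptger4 (1.22) were close to the 1.32 of Tfec.

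Regulators, partners and targets of the family were followed in 11 lists with 247 genes, of which 223 were tested. They were drawn up with earlier results of these data known, some lists overlap (5 genes stand in more than 1), and their counts are no independent support. Over all lists 27 genes rose and 34 fell by the limma test, 27.4% of those tested, against 13.3% of all genes. By list the share ran from 16.7% (proton pump, and lysosomal membrane and trafficking) to 53.8% (osteoclast and macrophage targets). With the replicate block 58 list genes were higher and 55 lower, where 33.0% of all genes passed. With duplicates averaged and the replicate set as a block, 35 passed in all, where 5.81% of all genes did. Below, "block" and "averaged" stand for these fits, each with the higher count before the lower one. The median difference was 0.01 over the lists and 0.00 over all genes tested.

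**Figure D4:**
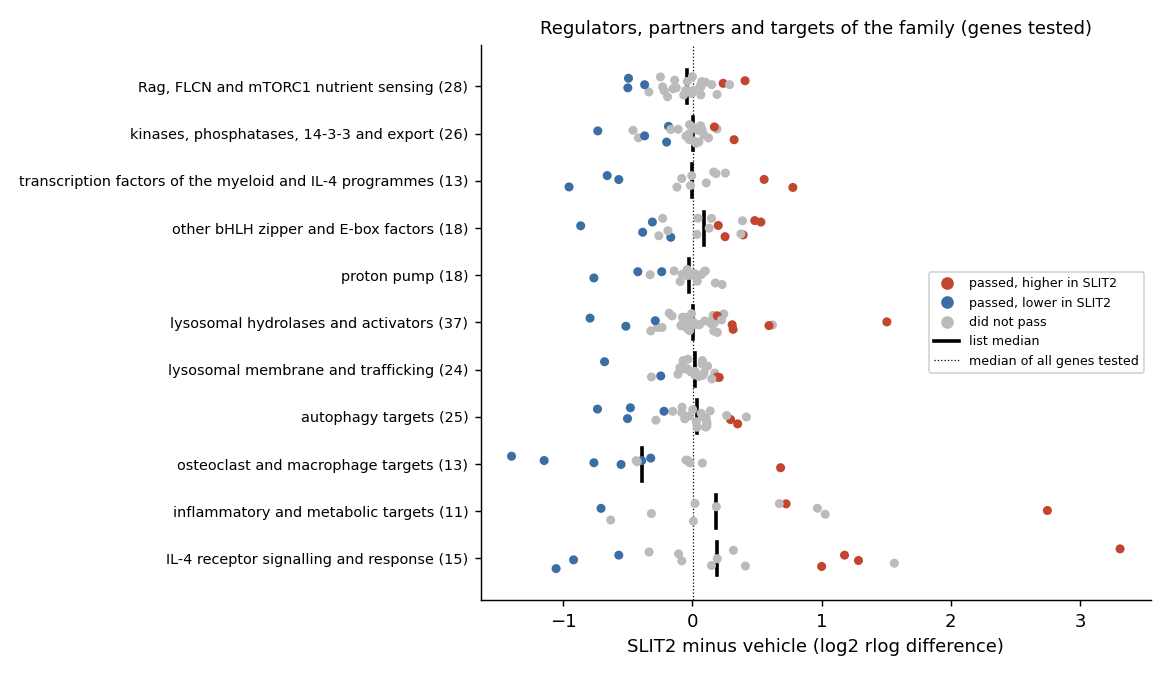
SLIT2 minus vehicle differences (horizontal axis, log2) of the tested genes of each list, with the number tested in brackets. Red and blue points passed an adjusted p of 0.05 as higher or lower in SLIT2, grey points did not, thick bars are list medians and the dotted line is the median of all genes tested. The osteoclast and macrophage targets had the lowest median, -0.39, and the IL-4 list held the point at 3.31, Il4ra.

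Among the nutrient-sensing genes that control where the proteins reside, 2 of 28 rose and 3 fell (block 4 and 9, averaged 0 and 2). Their median difference was -0.04, and the 17.9% that passed were near the 13.3% of all genes. Rptor, the mTORC1 subunit that binds substrates, was at 10.52, 10.37, 10.22 and 10.23 in SLIT2 and at 11.00, 10.99, 10.67 and 10.68 in vehicle, and it fell by 0.50 (SE 0.10, limma adjusted p = 0.0166). The SLIT2 libraries were all below the vehicle libraries. Sesn1 fell by 0.50 (SE 0.041, adjusted p = 2.37e-04) and Castor2, a paralog of an arginine sensor, rose by 0.41 (SE 0.080, adjusted p = 0.0126). Rragd, the Rag GTPase gene that MiT/TFE factors themselves activate, fell by 0.37 (SE 0.068, adjusted p = 0.00896). Its partner gene Rragc had a difference of -0.14 (adjusted p = 0.173, 0.202 averaged and 0.0438 under the block). The genes of folliculin, which activates RagC and RagD, and of its binding partners did not pass, with differences of 0.065 for Flcn (adjusted p = 0.307), -0.12 for Fnip1 (0.206) and -0.23 for Fnip2 (0.0724). With the block Fnip1 (adjusted p = 0.0166) and Fnip2 (0.00318) passed as lower, and with averaged duplicates neither did (0.149 for Fnip1 and 0.0968 for Fnip2). The calls of Castor2 (0.0905) and Rragd (0.0672) were lost there too.

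Of the kinases, phosphatases, 14-3-3 proteins and the export receptor that act on the family, 2 of 26 rose and 4 fell (block 3 and 6, averaged 0 and 2), with a median of 0.00. The kinase gene Akt2 rose by 0.32 (SE 0.050, adjusted p = 0.00439). Ywhah, a 14-3-3 gene, fell by 0.37 (SE 0.056, adjusted p = 0.00364). Both calls were lost with averaged duplicates (adjusted p = 0.0808 for Akt2 and 0.0937 for Ywhah).

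Transcription factors of the myeloid and interleukin-4 programmes moved both ways. Of 13 tested, 2 rose and 3 fell, against block 6 and 3 and averaged 2 and 2. Spi1, the gene of PU.1, whose core motif is shown in the Tfec window, had a difference of 0.26 (SE 0.077, adjusted p = 0.0675, 0.00571 with the block and 0.115 averaged). It was at 13.51, 13.59, 13.28 and 13.31 in SLIT2 and at 13.16, 13.26, 13.14 and 13.11 in vehicle, without overlap. Spi1 passed with quantile normalization (adjusted p = 0.0268) and median centring (0.0470), and it did not pass without any of the 8 libraries (0.0504 to 0.156). The AP-1 gene Fos fell by 0.95 (SE 0.16, adjusted p = 0.00615) and Cebpa, a myeloid lineage factor, by 0.66 (SE 0.060, adjusted p = 3.46e-04). Stat6, through which interleukin-4 acts, had a difference of -0.08 (adjusted p = 0.554).

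Other leucine zipper and E-box factors, some of them without a zipper, included 5 of 18 higher and 4 lower (block 7 and 5, averaged 0 and 2), with a median of 0.09. Myc fell by 0.86 (SE 0.075, adjusted p = 2.60e-04), Srebf2, the activator of cholesterol synthesis genes, rose by 0.48 (SE 0.075, adjusted p = 0.00416), and Mxd1, a Myc antagonist, rose by 0.53 (SE 0.14, adjusted p = 0.0405). The count was 3 higher and 2 lower without SLIT2 replicate 2 and likewise without vehicle replicate 3. Leaving out any library other than SLIT2 replicates 3 and 4 cost Mxd1 its call (adjusted p up to 0.100). With averaged duplicates Srebf2 (0.0844) and Mxd1 (0.0809) lost their calls.

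Lysosomal genes are the classic targets of the family. For 5 of those named below the window around the start site held an E-box, shown here from GRCm38.p6 with CACGTG in capitals. They were chosen because 1 rose, 1 fell and 3 did not pass the test.
Lgmn, chr12:102439124-102439153, minus strand: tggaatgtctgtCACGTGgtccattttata
Atp6v1a, chr16:44139373-44139402, minus strand: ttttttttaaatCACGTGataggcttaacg
Ctsd, chr7:142388055-142388077, minus strand: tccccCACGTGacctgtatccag
Lamp1, chr8:13159088-13159117, plus strand: agggcaagatatCACGTGgtccagcgccca
Mcoln1, chr8:3500436-3500465, plus strand: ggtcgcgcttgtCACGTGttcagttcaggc
The windows of Ctsc, Lipa, Cd68, Ctns, Sqstm1, Gabarapl1, Tecpr1, Acp5, Ctsk, Gpnmb and Csf3r held no CACGTG. The M-box core CATGTG was not examined in the windows of these target genes. No window was available for Atp6v0d2, Atp6v1b2, Sort1, Dcstamp and Itgb3.

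Among the lysosomal hydrolases and their activators 5 of 37 rose and 3 fell (block 12 and 8, averaged 4 and 0), with a median of 0.01. Ctsc, the protease that activates granule serine proteases, had values of 15.02, 15.07, 14.47 and 14.46 in SLIT2 and of 13.59, 13.61, 12.94 and 12.86 in vehicle. It rose by 1.505 (SE 0.23, limma adjusted p = 0.00365), without overlap. Lgmn, an asparaginyl endopeptidase with an E-box, rose by 0.59 (SE 0.051, adjusted p = 2.58e-04). Lipa, the lysosomal acid lipase, was at 15.01, 14.96, 15.20 and 15.30 in SLIT2 and at 16.01, 16.00, 15.76 and 15.87 in vehicle. It fell by 0.79 (SE 0.093, adjusted p = 0.00110), a call lost with averaged duplicates (0.0761). Ctsd, the main aspartic protease of the lysosome, had a difference of -0.04 (SE 0.071, adjusted p = 0.796). The count was 3 higher and 2 lower without SLIT2 replicate 1 or 2 or without vehicle replicate 1 or 3.

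None of the 18 proton pump genes rose and 3 fell (block 2 and 5, averaged 0 and 2), with a median of -0.03. The 16.7% that passed were all lower, where 6.58% of all genes passed as lower and 13.3% in either direction. A count of 3 is small. Atp6v0d2, a subunit prominent in osteoclasts, fell by 0.76 (SE 0.21, adjusted p = 0.0446), Atp6v1b2 by 0.42 (SE 0.072, adjusted p = 0.00653) and Atp6v1a by 0.24 (SE 0.042, adjusted p = 0.00735). Atp6v0d2 kept its call without SLIT2 replicate 4, and leaving out any other library lost it (adjusted p up to 0.115). It passed in the block fit (adjusted p = 3.47e-05) and in the averaged fit (0.0270). The 2 replicate sets gave Atp6v0d2 effects of similar size, -0.785 for the first pair and -0.74 for the second. The Atp6v1a call was lost with averaged duplicates (adjusted p = 0.104). At the lysosomal membrane and in trafficking to it, 2 of 24 rose and 2 fell (block 4 and 3, averaged 0 and 1). That was 16.7% of them, near the 13.3% of all genes, with a median difference of 0.02. The sorting receptor gene Sort1 fell by 0.68 (SE 0.12, adjusted p = 0.00916), Cd68 fell by 0.24 (SE 0.052, adjusted p = 0.0183) and the cystine exporter gene Ctns rose by 0.21 (SE 0.051, adjusted p = 0.0325). Lamp1 had a difference of -0.02 (adjusted p = 0.935) and Mcoln1, the calcium channel upstream of calcineurin and Tfeb, of 0.02 (adjusted p = 0.946). The count was 1 higher and 1 lower without SLIT2 replicate 2 or 3 or without vehicle replicate 1 or 2. The calls of Cd68 (adjusted p up to 0.0566) and Ctns (up to 0.0859) were among those lost, Cd68 in those 4 cases and Ctns without any library other than SLIT2 replicate 4. Both were lost with averaged duplicates (adjusted p = 0.131 for Cd68 and 0.153 for Ctns).

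Of the autophagy genes 2 of 25 rose and 4 fell (block 7 and 5, averaged 2 and 3), with a median of 0.04. Sqstm1, the cargo receptor p62 and a much used readout of TFEB and TFE3 activity, was at 13.68, 13.63, 13.60 and 13.57 in SLIT2 and at 14.16, 14.15, 14.03 and 14.06 in vehicle. It fell by 0.48 (SE 0.047, adjusted p = 4.82e-04), and its SLIT2 libraries were all below its vehicle libraries. Tecpr1, which acts in autophagosome maturation, fell by 0.73 (SE 0.097, adjusted p = 0.00191) and Gabarapl1, an ATG8-family gene, by 0.50 (SE 0.040, adjusted p = 2.08e-04). The count was 0 higher and 3 lower without vehicle replicate 1, 2 or 3.

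The osteoclast and macrophage targets, genes that Mitf or Tfe3 are known to drive in osteoclasts plus genes linked to the family in macrophages, had 1 of 13 higher and 6 lower (block 1 and 7, averaged 1 and 4) and a median of -0.39. Dcstamp, needed for cell fusion, had values of 6.74, 6.24, 6.06 and 6.44 in SLIT2 and of 8.16, 8.16, 7.34 and 7.42 in vehicle. It fell by 1.40 (SE 0.24, adjusted p = 0.00615). The integrin gene Itgb3 fell by 1.15 (SE 0.10, adjusted p = 3.40e-04). Acp5 and Ctsk, the tartrate-resistant phosphatase and cathepsin K genes that Mitf drives in osteoclasts, had differences of -0.05 (SE 0.30, adjusted p = 0.944) and -0.02 (SE 0.068, adjusted p = 0.901). Gpnmb, a membrane glycoprotein gene used as a readout of Mitf and Tfe3, had a difference of -0.44 (adjusted p = 0.0754, 0.0978 averaged and 0.00218 under the block). Its values were 17.57, 17.49, 17.79 and 17.84 in SLIT2, all below the 17.89, 17.93, 18.23 and 18.38 of vehicle.

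All 9 osteoclast markers stand in this list, so their values are no separate measurement. Of 6 tested, the 3 that fell were Dcstamp, Itgb3 and Atp6v0d2. The markers summed to a log2 level between 12.69 and 13.29 in SLIT2 libraries and between 13.47 and 14.02 in vehicle libraries, and most of that sum was Atp6v0d2. Without it the sum lay between 9.74 and 10.12 in SLIT2 and between 10.42 and 10.81 in vehicle. Calcr, the calcitonin receptor gene that marks mature osteoclasts, was listed at 0, Oscar lay near 0, and the part of such cells in the result was not tested. In bulk samples fewer cells of a type and less RNA per cell cannot be told apart. Csf3r, the G-CSF receptor gene reported as a target of Tfec in mouse macrophages, was the member of that list that rose. It was at 12.21, 12.08, 11.83 and 11.88 in SLIT2, above the 11.43, 11.35, 11.19 and 11.30 of vehicle, and rose by 0.68 (SE 0.092, adjusted p = 0.00215). Neutrophils also express Csf3r, and their part in this difference was not tested. Of 8 neutrophil markers 1 was tested (S100a8, difference -0.15, adjusted p = 0.413), and their sum lay between 5.27 and 5.44 in SLIT2 and between 5.30 and 5.79 in vehicle.

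Interleukin-4 receptor and response genes, the setting in which Tfec was described, had 4 of 15 higher and 3 lower (block 7 and 4, averaged 4 and 2), with a median of 0.19. Il4ra, the receptor's alpha chain, was at 14.03, 14.05, 13.48 and 13.42 in SLIT2 and at 10.66, 10.73, 10.09 and 10.26 in vehicle. All SLIT2 libraries were above all vehicle libraries, by a mean of 3.31 (SE 0.20, adjusted p = 6.13e-05). Jak3, a kinase of the receptor's common gamma chain, rose by 1.28 (SE 0.089, adjusted p = 1.00e-04) and Mrc1, the mannose receptor gene, by 1.18 (SE 0.14, adjusted p = 0.00125). The transcription factor genes Egr2 and Irf4 fell, by 1.055 (SE 0.12, adjusted p = 9.73e-04) and by 0.57 (SE 0.11, adjusted p = 0.0134, and 0.0961 averaged). Of the 24 genes, 9 did not reach the minimum mean, among them Arg1, Chil3, Retnla, Ccl17, Ccl22 and Ccl24, which mark the response to interleukin-4. Arg1 averaged 0.50 in SLIT2 and 0.42 in vehicle.

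Inflammatory and metabolic genes placed under TFEB and TFE3 had 2 of 11 higher and 1 lower (block 5 and 2, averaged 2 and 1), with a median of 0.19. Il1b rose by 2.75 (SE 0.41, adjusted p = 0.00354) and Il10, an anti-inflammatory cytokine gene, by 0.72 (SE 0.15, adjusted p = 0.0134, and 0.140 averaged), while Tnf fell by 0.71 (SE 0.12, adjusted p = 0.00570). Ppargc1b, a coactivator of mitochondrial genes, had a difference of 0.18 (adjusted p = 0.252). The 7 genes Il6, Il12b, Il27, Csf2, Ppargc1a, Ppara and Nos2 did not reach the minimum mean.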

How the data were processed

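The deposited values are rlog values on a log2 scale, given to 2 decimals, 1 column per library. Per the labels' protocols, stranded mRNA libraries from 300 ng of total RNA were sequenced as 101 bp read pairs. Per the submitters' processing notes, the tools were STAR, DESeq2, Salmon, Picard 2.23.8, FastQC 0.11.9 and SAMtools 1.7 with mm10 and GRCm38. The sources used here give no settings, strand included. The rlog transform shrinks low values towards the gene's mean, so differences of low genes are understated.

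Genes with a mean of at least 4 rlog were fitted with limma 3.58.1 (R 4.3.3, variance trend, two-sided, Benjamini-Hochberg over 11851 genes). A treatment model was the main one. Same-numbered samples deviated together (correlations of 0.637, 0.671, 0.753 and 0.587), so replicate number was the block in an alternative. The limma fits were also run on simulated data with the spread within duplicates and the same treatment effect in both replicate sets. That run cannot show how often false calls arise where the effect differs between sources. Gene models and lengths came from GENCODE M21 and start-site windows from RefSeq (GRCm38.p6).

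Members and lists were chosen with earlier results of these data known. Named were the members, up to 3 genes past the threshold per list by size of difference (or that with the smallest p), 17 fixed genes, and the 5 genes most and 3 least correlated with Tfec. Of these, 2 genes are not reported here. Egr2, Irf4, Arg1, Xist, Ddx3y and Gm42418 were added after their values were seen. Figures were drawn with matplotlib 3.10.9.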

Additional observations from a re-analysis of the deposited data

Results flagged for a closer look

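The limma interaction test between the replicate sets passed at Mitf and at 6 other named genes, where 4.40% of all genes passed. It rests on the spread within duplicates. How far the SLIT2 effect varies between sources is therefore not measured. The Mitf call was lost without vehicle replicate 1 and without a mean-variance trend. The effect in replicates 3 and 4 minus that in replicates 1 and 2 was 0.28 for Mitf, 0.23 for Ywhah, -0.17 for Akt2, -0.29 for Srebf2, 0.46 for Lipa, 0.30 for Mrc1 and 0.46 for Fcgr1, an Fc receptor gene. Each had the same direction in both sets. Within replicates 1 and 2 Lipa differed by -1.02 and within replicates 3 and 4 by -0.57. The sets differ in Xist, in Ddx3y and in the share of Gm42418, and the part of sex or of Gm42418 in these differences was not tested.

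In 3 genes a single vehicle library was flagged as apart from the other 3. The flag weighs a gap against the range of its group, so a small gap in a tight group counts. The 64 genes searched gave 128 groups of 4 libraries. A rate of about 1 in 20 groups by chance holds for 4 independent values. These libraries split into pairs and the genes share them, so the 3 cases cannot be set against that rate. The values were 15.33 for Atp6v1a, 6.61 for Ppargc1b and 9.05 for Unc119. No SLIT2 or vehicle library was flagged for Tfec, Tfeb, Tfe3 or Mitf, though a split into pairs can hide a single deviating library.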

How the results depend on the processing

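Under the alternatives run, the difference of Tfec stayed between 1.27 and 1.38, Tfeb between -0.59 and -0.43, Mitf between -0.51 and -0.23 and Tfe3 between -0.07 and -0.01 (without each library in turn 1.29 to 1.35, -0.59 to -0.44, -0.41 to -0.33 and -0.07 to -0.01). Mitf moved by more than its spread in replicates 1 and 2 alone (-0.51) and replicates 3 and 4 alone (-0.23). Of all genes 1581 passed, against 3912 with the replicate block, 4652 with the set block, 688 with averaged duplicates, 3962 in replicates 1 and 2 alone, 2880 in replicates 3 and 4 alone and 1021 to 1254 without each library. Of the list genes 61 passed, against 113 with the replicate block, 132 with the set block, 35 with averaged duplicates, 124 in replicates 1 and 2 alone and 45 to 57 without each library. The set difference was called at 521 genes, at 116 without a variance trend and at 122 to 579 without each library. For Mitf it was 0.28 without the trend and 0.27 to 0.29 without each library. The gap in the Tfec share was 20.3 percentage points, 21.4 by the longest transcript, 21.3 in replicates 1 and 2 and 19.4 in replicates 3 and 4; these lengths and sets were chosen after seeing the data. Of the 8 genes most like or opposite to Tfec, 2 were among the most extreme with centred sets and 2 with Spearman's rho. The cause of these shifts was not tested.

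For 6 genes that did not pass, the sign of a small difference turned. It was 0.055 for Lamp1 in replicates 1 and 2, 0.04 for Ctsk in replicates 3 and 4, and 3.13e-04 for Lamp1, 0.18 for Ctsd and -0.0092 for Mcoln1 with quantile normalization. Without each library in turn the difference ran between -0.063 and 0.0275 for Lamp1, -0.045 and 0.022 for Ctsk, -0.048 and 0.079 for Mcoln1, -0.25 and 0.12 for Acp5, and -0.016 and 0.14 for Tyr, a melanocyte gene. The lowest adjusted p there was 0.193. Depth is unknown, so no counting limit can be given.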

Other observations

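Markers of mast cells, melanocytes, dendritic cells and lymphocytes were mostly below the minimum mean, and a listed 0 does not show absence. Of 9 mast cell markers 1 was tested, Kit, with a difference of -0.51 (SE 0.17, limma adjusted p = 0.0869, 0.0382 with the replicate block and 0.170 with averaged duplicates), and 6 were listed at 0. Of 8 melanocyte markers 1 was tested, Tyr, with a difference of 0.07 (adjusted p = 0.797), and 6 were listed at 0. The dendritic cell gene Xcr1 had a difference of -0.16 (adjusted p = 0.620), and none of 5 lymphocyte markers was tested. Of 6 stromal and endothelial markers 1 rose, Col3a1, by 0.67 (SE 0.18, adjusted p = 0.0422), a call that only leaving out vehicle replicate 4 preserved (adjusted p up to 0.107), and averaged duplicates lost it (0.0866).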
